A study of Gallus gallus with 9 samples.

Results

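The apex of the chick basilar papilla was compared with its base at post-hatch day 1. The members were the libraries whose labels name the apex or the base, which are 6 of the 9 RNA-seq libraries of the series, and every gene whose FPKM averaged 1 or more in one of these regions, which gave 12976 of the 24880 genes in the deposited table. FPKM scales the sequenced fragments of a gene by the length of its transcript and by the size of its library. The birds were untreated chickens, and the labels give neither strain nor sex. The papilla was cut into base, middle and apex, and RNA from 12 chickens (24 cochleas) was pooled into 3 replicates of each region, so a library holds several animals. The question of the study is which genes differ along the frequency axis of the ear. Here every value is given for replicates 1, 2 and 3 in that order, and the middle libraries enter the estimate of the spread, the check of the replicate numbers and, as region means, 1 count.

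The basilar papilla is the hearing organ of birds. Its hair cells are ordered by the sound frequency to which they respond best, with high frequencies at the base and low frequencies at the apex. A hair cell carries a bundle of stereocilia on its upper surface, tip links open mechanotransduction channels when the bundle is deflected, and ribbon synapses pass the signal to the neurons of the acoustic ganglion. Tall hair cells receive mainly afferent fibres and short hair cells mainly efferent fibres, and the share of each type, the height of the bundles, the ion channels and the width of the papilla all change along the length of the organ. Hair cells sit among supporting cells under a tectorial membrane, and the sheet lies on a basilar membrane held between plates of cartilage-like tissue. A dissected piece therefore holds sensory cells, other epithelium, nerve fibres with Schwann cells, connective tissue, vessels and blood.

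Before the comparison, the libraries were set beside each other. The summed FPKM lay between 660314 and 733179 over the 6 libraries. The relative number of fragments, estimated from the spacing of the smallest values, lay between 1 and 1.45 times that of base replicate 1, and this estimate is approximate. No interval for counting error was computed from it. The geometric mean FPKM of 22 hair cell markers was 5.92, 4.79 and 10.8 in the base and 24.5, 19.9 and 28.3 in the apex, so base replicate 3 stood apart from the other base libraries in the direction of the apex. Genes of neurons stood apart in replicate 2 of either region. NEFM, a neurofilament subunit, was at 39.0, 220 and 42.5 FPKM in the base and at 50.9, 537 and 61.2 FPKM in the apex. Genes of red blood cells were high in apex replicate 3. HBAA, an alpha globin, was at 695, 528 and 1193 FPKM in the base and at 1537, 690 and 5551 FPKM in the apex, and it was not called, although a model that adds the replicate number as a factor, the block below, called it higher (adjusted p = 0.0179). The part of these differences in the results below was not tested, and values without single libraries are given where they change a call.

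The apex and the base differed in 1548 of the 12976 genes tested, which is 11.9%. A gene was called where limma on log2(FPKM + 1) gave a Benjamini-Hochberg adjusted p under 0.05 and the ratio of the mean FPKM was at least 1.5. In the apex, 938 genes (7.23%) were higher and 610 genes (4.7%) were lower. An unadjusted p under 0.05 was reached by 4631 of the 12976 genes, in either direction. Counts of list members below are to be read beside these values. A gene whose mean was under 1 FPKM in one region was tested only through the other, so the filter fixed its direction. This holds, for example, for KCNA10, CACNA1B, MSX1, LGR6, COL17A1, CFAP52 and RSPH1, which entered through the apex, and for OSTN, which entered through the base. The larger folds lay on the apical side, where 164 genes were at least 4-fold higher and 20 genes at least 4-fold lower. Among called genes, the median log2 fold change was 0.93 for those higher in the apex and -0.74 for those lower, and the median over all genes tested was -0.007. All 3 apex libraries lay above all 3 base libraries in 936 of the 938 higher genes, against 20.7% of all genes tested. They lay below them in 609 of the 610 lower genes, against 22.1% of all genes tested. Where non-overlap is given below for a called gene, it therefore adds little to the call. The mean of the middle region fell between those of base and apex in 833 of the higher and in 574 of the lower genes. With the replicate number as a block, the calls comprised 15.2% of the genes, 9.67% higher and 5.54% lower, and they included all 1548. Without base replicate 1, 586 genes were higher and 424 lower. Without replicate 1 of every region, which leaves 2 libraries per region, 246 were higher and 382 lower. Of the called genes, 400 have no symbol in the table and are not named here, and 237 share a locus entry with another gene, which makes their values uncertain.

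**Figure D1:**
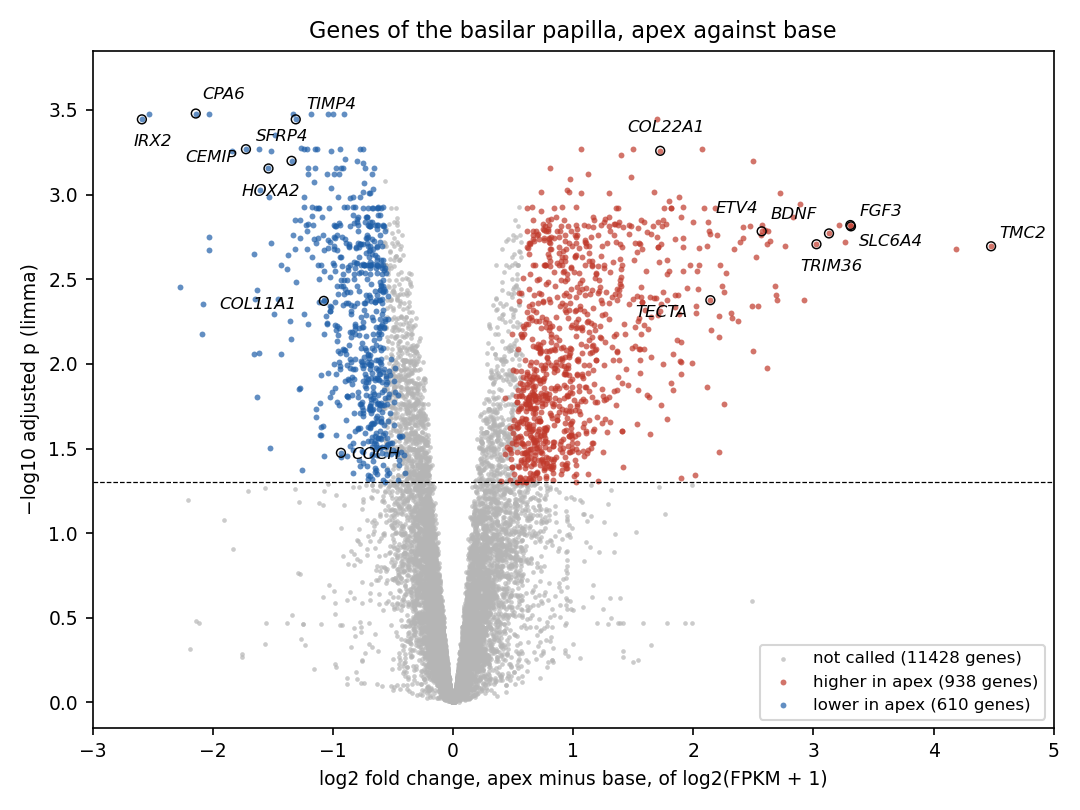
Each point is 1 of the 12976 genes tested, with the log2 fold change (apex minus base, on the log2(FPKM + 1) scale) on the x axis and −log10 of the adjusted p from limma on the y axis, and the dashed line marks an adjusted p of 0.05. The 938 genes called higher in the apex (red) reach log2 fold changes above 4, and the 610 called lower (blue) stay above -3.

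Among named genes with the largest rises were a microtubule-associated ubiquitin ligase, an antioxidant enzyme, synaptic and channel genes of the hair cell and a set of FGF genes. TRIM36, which encodes a ubiquitin ligase that binds microtubules, was at 4.38, 4.46 and 13.3 FPKM in the base and at 62.6, 45.4 and 75.8 FPKM in the apex. It was 8.30-fold higher in the apex (log2 fold change 3.02 ± 0.41 (SE), adjusted p = 0.00196), and its gene lies on chromosome Z from 78755550 to 78774831 (galGal5). Every apex library lay above every base library, as the rule that named these genes required. GPX2, a glutathione peroxidase that removes peroxides, was at 30.1, 23.1 and 74.9 FPKM in the base and at 341, 195 and 364 FPKM in the apex, a 7.03-fold difference (adjusted p = 0.00422). NRGN, the calmodulin-binding protein neurogranin, was at 70.4, 55.5 and 162 FPKM in the base and at 593, 435 and 687 FPKM in the apex (5.95-fold, adjusted p = 0.00418). In these genes base replicate 3 was the highest base library, and its place below every apex library was required by the same rule. TMCC2, RGS9BP and CEP41 were 6.39-fold, 6.44-fold and 5.61-fold higher in the apex. CEP41 is a centrosomal protein needed for tubulin glutamylation in cilia, and RGS9BP anchors a G-protein regulator in the photoreceptors of mice. Ahead of these by log2 fold change, among genes with a symbol, came TMC2 (21.8-fold), FGF3 (15.2-fold), SLC6A4, the serotonin transporter (9.97-fold), CHRNA10 (9.64-fold) and BDNF (10.7-fold).

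Among named genes with the largest falls were secreted modulators, a neuropeptide receptor and genes that act on matrix and lipid. SFRP4, a secreted antagonist of Wnt ligands, was at 9.05, 10.7 and 8.63 FPKM in the base and at 1.77, 2.33 and 2.40 FPKM in the apex, which is 4.36-fold higher in the base (adjusted p = 0.000539). CEMIP, which takes part in the breakdown of hyaluronan, was at 153, 192 and 185 FPKM in the base and at 50.5, 64.0 and 66.8 FPKM in the apex, 2.92-fold higher in the base (adjusted p = 0.000701). In both genes the libraries of a region lay close together, and the rule that named them required regions that do not overlap. NTSR1, a receptor of neurotensin, was 7.43-fold higher in the base, and G0S2, an inhibitor of the lipase that empties fat droplets, was 3.28-fold higher. CPA6, a carboxypeptidase of the extracellular space, was 4.42-fold higher in the base. RPP25, an RNase P subunit, was 6.41-fold higher in the base, and PANK4, a pantothenate kinase relative that shares its locus entry, was 2.88-fold higher. OSTN, a secreted peptide, was at 4.66 to 6.03 FPKM in the base and was listed at 0 in apex replicate 1, with 1.16 and 0.556 FPKM in the other apex libraries. CYTL1, CCDC3, C1QTNF8, ITGBL1 and SCARA3 were between 2.81-fold and 3.16-fold higher in the base. PGF, a member of the VEGF family, was 2.68-fold higher in the base, and its call was lost without base replicate 1, 2 or 3 (log2 fold changes -1.60, -1.35 and -1.62) and without apex replicate 1 or 3 (-1.41 and -1.15).

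The most abundant genes among those called differed in kind between the directions of the call. Among genes called higher in the base they were mostly genes of matrix and cartilage. COCH, which encodes cochlin, a matrix protein of the inner ear mutated in a human deafness, was at 32130, 29878 and 24458 FPKM in the base and at 16547, 14206 and 14337 FPKM in the apex. No library of one region reached the other, and the mean was 1.92-fold higher in the base (adjusted p = 0.0335), but leaving out any base or apex library or middle replicate 3 took the adjusted p above 0.05, with log2 fold changes between -1.05 and -0.85. CHAD, or chondroadherin, a cartilage protein that shares its locus entry with another gene, was at 6517, 6628 and 5313 FPKM in the base and at 3089, 2433 and 2649 FPKM in the apex (2.26-fold higher in the base, adjusted p = 0.00235). C17orf67, of unknown function, was 2.19-fold higher in the base. Among genes called higher in the apex the most abundant were TECTB, a tectorial membrane protein, and CALB1, a calcium buffer. Next to these came the LIM-domain protein CSRP2 (2.58-fold) and the myelin genes PMP22 and PMP2. CALB1 was at 296, 272 and 656 FPKM in the base and at 1805, 1557 and 2327 FPKM in the apex, 4.65-fold higher in the apex (adjusted p = 0.00501). The calls of C17orf67 and CSRP2 were lost without base replicate 1 (log2 fold changes -1.01 and 1.31), and that of C17orf67 also without base replicate 2 (-1.18), apex replicate 2 (-1.05) or apex replicate 3 (-1.05).

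Genes of the hair cell apparatus were often called higher in the apex, and no member of the 5 lists given here was called lower. Of the 10 tested genes of the mechanotransduction channel and tip link, 7 were called higher, with a median log2 fold change of 1.18. Of 33 stereocilia and cuticular plate genes, 20 were higher (median 1.09), of 23 genes of the ribbon synapse and exocytosis 11 (median 0.77), and of 13 hair cell transcription factors 7 (median 0.95), beside 7.23% higher among all genes. The 22 hair cell markers held 16 calls, with summed FPKM from 188 to 334 in the base and from 731 to 1096 in the apex. Many of these markers, such as TMC2, are also members of the other lists, so the counts are not independent of each other. At an unadjusted p under 0.05, members of these 5 lists lower in the apex numbered 1, 5, 2, 0 and 1. The stereocilia and cuticular plate list was not raised throughout. Its summed FPKM overlapped, from 2998 to 3583 in the base and from 3154 to 3806 in the apex. Of its 33 members 24 had a positive log2 fold change and 9 a negative one. All apex libraries lay above all base libraries in 23 and below them in 5, beside 20.7% and 22.1% of all genes tested. In such bulk pieces fewer cells of a type and less RNA per cell cannot be told apart. Without replicate 1 of every region these 5 counts were 0, 2, 4, 0 and 1, while leaving out any one library left each within 1.5 times its value.

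Members of the mechanotransduction complex did not rise by the same amount. TMC2, a channel subunit, was at 1.06, 0.332 and 7.50 FPKM in the base and at 58.6, 48.2 and 86.9 FPKM in the apex. Its relative TMC1, the channel subunit of mature hair cells in mice, was at 2.53, 2.01 and 3.39 FPKM in the base and at 1.63, 1.06 and 1.61 FPKM in the apex, which gave an adjusted p of 0.10 and, with the replicate number as a block, a call lower in the apex (adjusted p = 0.00838). The regions thus did not overlap for either gene, in opposite directions. CIB2, a calcium-binding partner of the TMC proteins, was 5.23-fold higher in the apex, TMIE 5.62-fold, and LHFPL5, which links tip link and channel, 2.32-fold. For the tip link itself, PCDH15 was at 3.89, 2.70 and 4.13 FPKM in the base and at 6.13, 4.91 and 7.14 FPKM in the apex (1.70-fold, adjusted p = 0.0234), a call lost without base replicate 1 or 2 (log2 fold changes 0.68 and 0.48) or apex replicate 1 or 3 (0.61 and 0.52). CDH23, the other tip link cadherin, was at 9.76, 7.15 and 11.9 FPKM in the base and at 9.40, 6.97 and 12.7 FPKM in the apex. The groups overlapped, with a ratio of 1.01 (adjusted p = 0.997), and the sign of the log2 fold change of CDH23 turned with quantile normalization. USH1C, which encodes harmonin of the upper tip link anchor, was 1.95-fold higher in mean without a call (adjusted p = 0.0569), and the block called it (adjusted p = 0.000991).

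Within the bundle, FSCN2, an actin crosslinker, was at 13.8, 11.4 and 35.5 FPKM in the base and at 131, 86.3 and 155 FPKM in the apex (6.14-fold, adjusted p = 0.0039). ESPN, which encodes espin, another actin crosslinker, was 4.15-fold higher, and GRXCR2, needed for bundle shape in mice, 8.02-fold. The base libraries of all of these lay below every apex library. MYO15A, the motor that carries elongation factors to stereocilia tips, was at 8.46, 4.91 and 16.5 FPKM in the base and at 45.4, 34.3 and 59.2 FPKM in the apex (4.64-fold, adjusted p = 0.00518). MYO7A, the myosin of the tip link anchor, was at 3.94, 4.97 and 8.15 FPKM in the base and at 15.7, 14.4 and 21.0 FPKM in the apex (3.00-fold, adjusted p = 0.00442). Of the 22 tested myosin heavy chains 7 were higher and 1, MYO1D, was lower (1.74-fold higher in the base). That is 36.4% called, beside 11.9% of all genes tested. MYO6, which anchors stereocilia at the cuticular plate, was 1.89-fold higher. The rise therefore differed between unconventional myosins of the hair cell, from 1.89-fold to 4.64-fold in those given here.

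At the synapses, OTOF, which encodes the calcium sensor otoferlin for vesicle fusion, was at 15.4, 11.1 and 38.5 FPKM in the base and at 134, 92.7 and 163 FPKM in the apex. It was 6.001-fold higher (adjusted p = 0.00347). SLC17A8, the glutamate transporter that fills hair cell vesicles, was at 4.01, 2.53 and 7.41 FPKM in the base and at 34.6, 24.3 and 37.2 FPKM in the apex (6.89-fold, adjusted p = 0.00165). CACNA1D, the pore of the calcium channel at the ribbon, rose less, from 6.02, 5.66 and 7.69 FPKM to 14.1, 13.6 and 16.1 FPKM (2.26-fold, adjusted p = 0.00603), and CABP2, which modulates that channel, was 2.30-fold higher. On the efferent side, the alpha10 subunit gene CHRNA10 of the nicotinic receptor was called, and its partner CHRNA9 was called only with the block. CHRNA9 was at 3.849, 3.94 and 7.57 FPKM in the base and at 8.63, 7.90 and 10.4 FPKM in the apex (1.75-fold, adjusted p = 0.0854), and the block called it higher (adjusted p = 0.00515). Among hair cell transcription factors, POU4F3, on which hair cell survival depends, was 6.52-fold higher, BARHL1 7.91-fold and GFI1 4.94-fold.

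To see which hair cell genes moved apart from the markers as a set, each gene was divided by the geometric mean of the 22 hair cell markers in the same library. A gene that is itself a marker was left out of that mean. This alternative was chosen after seeing the data and is given with no test. Of the 95 tested members of the hair cell lists, 22 had all apex ratios above all base ratios, 51 had them below, and 22 overlapped. The 95 include the 22 markers, so in part the set was divided by itself. The marker mean itself was 4.79 to 10.8 FPKM in the base and 19.9 to 28.3 FPKM in the apex. A gene with equal FPKM in both regions therefore falls below by construction, as the uncalled actin gene ACTB did. The share over all genes was not computed, so the count of 51 does not set hair cell genes apart from other genes. TMC2, itself a marker, kept a 9.10-fold difference in this ratio, CHRNA10 3.13-fold, BARHL1 2.45-fold and OTOF 1.93-fold. FGF3 (5.21-fold) and BDNF (3.51-fold) are not in the hair cell lists and were added by name, and which cells express them was not tested. MYO7A had overlapping ratios (0.851 times the base value). CDH23 was at 1.69, 1.52 and 1.11 in the base and at 0.367, 0.334 and 0.431 in the apex. TMC1 had a ratio 7.18 times as high in the base as in the apex, and CHRNA9 one 2.01 times as high. In FPKM, CDH23 overlapped between regions and CHRNA9 was higher in mean in the apex. Their lower apex ratios therefore follow by construction from the rise of the marker mean.

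**Figure D2:**
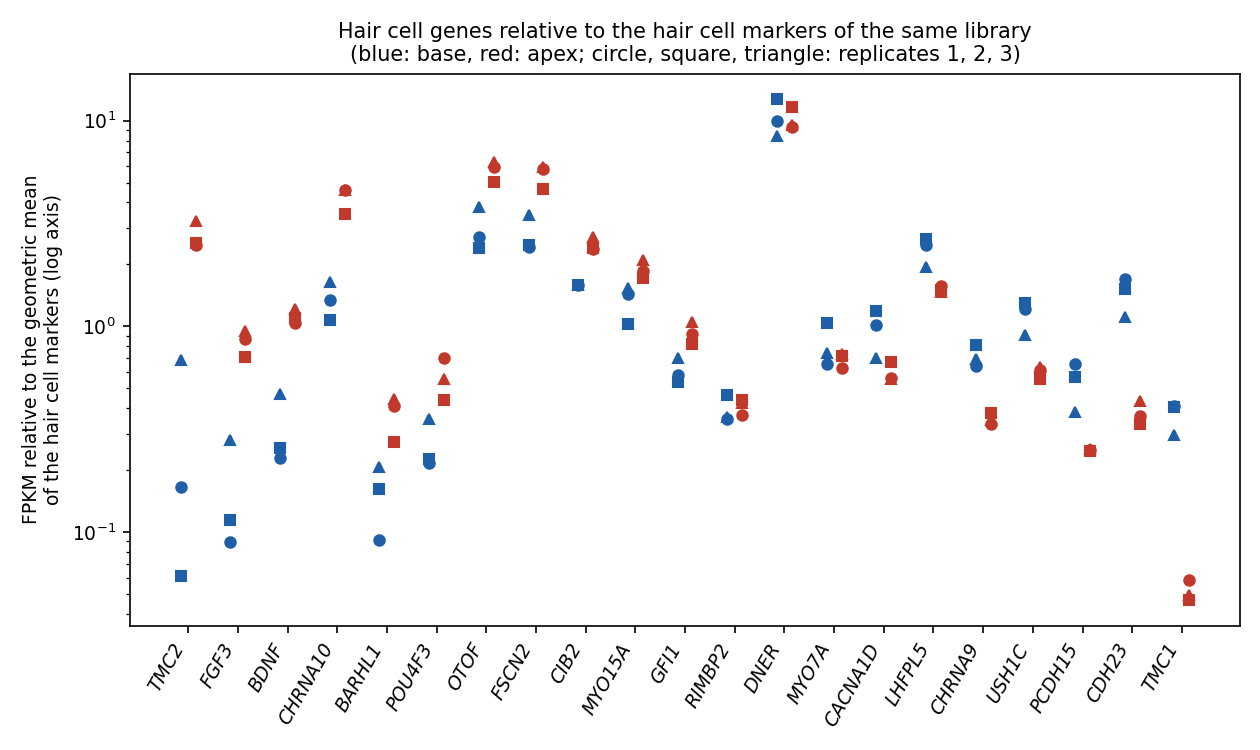
FPKM of 21 genes divided by the geometric mean FPKM of 22 hair cell markers in the same library, less the gene itself where it is a marker (log axis), with base in blue, apex in red and replicates 1 to 3 as circle, square and triangle. The genes are members of the hair cell lists, except FGF3, BDNF and DNER, which were added by name. TMC2, FGF3 and BDNF lay higher in every apex library, while PCDH15, CDH23 and TMC1 lay lower. A gene that rose less than the marker mean falls lower by construction, as PCDH15 and CDH23 did.

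Orthologues of human deafness genes were among the called genes in both directions. Of 91 tested, 34 were higher and 7 lower in the apex (median log2 fold change 0.43). That is 45.1% called, beside 11.9% of all genes tested. Besides the hair cell genes above, PJVK, which encodes pejvakin, was at 1.80, 1.75 and 2.38 FPKM in the base and at 8.64, 9.46 and 10.3 FPKM in the apex (4.79-fold, adjusted p = 0.0012). TMPRSS3, a serine protease needed for hair cell survival in mice, was 3.94-fold higher and GIPC3, a trafficking adaptor, 5.08-fold. The regions did not overlap in these genes. The lower ones were the matrix genes COCH, COL9A1, COL9A2, COL9A3 and COL11A1, the mesenchymal factor POU3F4, and SMPX, a small muscle protein. The call of SMPX was lost without base replicate 1 or 2 (log2 fold changes -0.53 and -0.54) or apex replicate 3 (-0.47). Without base replicate 2 the lower count was 4, and without replicate 1 of every region the higher count was 5.

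Ion channels and transporters split by subunit. Of 49 potassium channel genes 9 were higher and 4 lower (26.5% called, beside 11.9% of all genes tested). The block raised these counts to 15 and 7, and it also raised the share of all genes called to 15.2%. KCNG4, a modifying subunit of voltage-gated channels, was at 1.17, 1.09 and 3.17 FPKM in the base and at 14.2, 11.9 and 15.5 FPKM in the apex (7.65-fold, adjusted p = 0.00154), and KCNF1, another modifying subunit, was 5.69-fold higher. KCNA10, a Shaker-type channel, was at 0.437, 0.0878 and 0.331 FPKM in the base and at 2.98, 2.17 and 3.03 FPKM in the apex (9.57-fold, adjusted p = 0.00158). Every base library lay below every apex library in these genes. In the other direction, KCNA3, a Shaker-type channel as well, was at 16.6, 12.1 and 8.62 FPKM in the base and at 4.96, 4.07 and 3.47 FPKM in the apex, 2.99-fold higher in the base (adjusted p = 0.00709). The 2-pore channel gene KCNK5 was 1.67-fold higher in the base, and so was the inward rectifier gene KCNJ15 (1.71-fold), whose call was lost without base replicate 1 (log2 fold change -0.65) or apex replicate 2 (-0.63). KCNQ1, the potassium channel of endolymph secretion in mammals, overlapped between regions (6.10, 6.43 and 6.62 FPKM against 8.85, 10.6 and 6.16 FPKM).

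SCN3B, a beta subunit of sodium channels, was at 6.002, 5.81 and 14.7 FPKM in the base and at 48.0, 48.9 and 72.5 FPKM in the apex (6.39-fold, adjusted p = 0.00187). SCN2B, another beta subunit, was 2.24-fold higher in the base, and its call was lost without apex replicate 1 or 2 (log2 fold change -0.88 in both cases). The 2 subunits thus lay on opposite sides. CACNA1B, the pore of N-type calcium channels, was at 0.223, 0.376 and 0.988 FPKM in the base and at 3.39, 3.21 and 4.19 FPKM in the apex (6.80-fold, adjusted p = 0.00167). Calcium extrusion genes differed less than the buffer CALB1. ATP2B2, the calcium pump of the hair bundle, was 1.80-fold higher in the apex (adjusted p = 0.00411) and ATP2B1 1.39-fold, below the ratio for a call. ATP2A3, a pump of the endoplasmic reticulum, was 3.05-fold higher in the apex.

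Of 54 neurotransmitter receptor genes 6 were higher and 9 lower in the apex, and the block raised these counts to 13 and 11. The calls without the block were 27.8% of the list, beside 11.9% of all genes tested. GRIK4, a kainate receptor subunit, was at 4.24, 3.49 and 6.81 FPKM in the base and at 20.02, 16.1 and 22.9 FPKM in the apex (4.06-fold, adjusted p = 0.00183). GRM8, a metabotropic glutamate receptor, was at 6.12, 5.79 and 5.56 FPKM in the base and at 1.504, 2.51 and 1.90 FPKM in the apex, 2.95-fold higher in the base (adjusted p = 0.00165). Serotonin receptors were called on both sides. HTR1B was at 6.22, 9.89 and 9.09 FPKM in the base and at 16.5, 24.4 and 21.6 FPKM in the apex (2.48-fold, adjusted p = 0.00594). HTR7 was at 87.9, 113 and 88.2 FPKM in the base and at 48.3, 44.9 and 47.6 FPKM in the apex, 2.05-fold higher in the base (adjusted p = 0.000918), and HTR2A was 2.08-fold higher there. None of these 3 receptors overlapped between regions. The serotonin transporter SLC6A4 was 9.97-fold higher in the apex. The lower receptor count was 5 without base replicate 1, base replicate 2 or apex replicate 1, and 4 without apex replicate 3.

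Of 212 solute carriers 21 were higher and 9 lower, shares near those of all genes. SLCO1A2, an organic anion transporter, was at 55.7, 64.1 and 59.4 FPKM in the base and at 22.5, 27.99 and 23.8 FPKM in the apex (2.41-fold higher in the base, adjusted p = 0.000539). SLC13A5, a citrate transporter, was 2.38-fold higher in the base. The glutamate transporters of glia split, with SLC1A3 1.599-fold higher in the apex and SLC1A2 1.74-fold higher in the base. The higher count was 13 without base replicate 1 and 12 without apex replicate 3, and the lower count was 16 without apex replicate 2.

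Supporting cell genes were called higher more often than lower in the apex, and the tectorial membrane genes split by kind. Of 21 supporting cell genes 10 were higher, 10 were not called and 1, the gap junction gene GJA1, was lower (median log2 fold change 0.57). That is 52.4% called, beside 11.9% of all genes tested. Of 12 supporting cell markers 9 were higher and 0 lower (75% called, and 11 and 0 at an unadjusted p under 0.05). Their summed FPKM ran from 1097 to 1887 in the base and from 2713 to 3727 in the apex. TECTA, the large glycoprotein alpha-tectorin of the tectorial membrane, was at 80.8, 64.6 and 169 FPKM in the base and at 442, 340 and 517 FPKM in the apex (4.14-fold, adjusted p = 0.0042). TECTB, or beta-tectorin, was at 738, 630 and 1212 FPKM in the base and at 1850, 1740 and 2454 FPKM in the apex (2.34-fold, adjusted p = 0.0211). The call of TECTB was lost without base replicate 1 or 2 or apex replicate 3 (log2 fold changes 1.19, 1.07 and 1.12). The collagens of the same list went the other way. COL9A1 was at 3730, 3208 and 2834 FPKM in the base and at 2052, 1558 and 1637 FPKM in the apex (1.86-fold higher in the base, adjusted p = 0.00823), COL9A2 was 1.94-fold higher and COL11A1 2.11-fold higher in the base. Collagens IX and XI are also the minor collagens of cartilage. SOX2, a transcription factor of supporting cells and their progenitors, was at 4.42, 4.20 and 7.67 FPKM in the base and at 16.5, 15.04 and 19.2 FPKM in the apex (3.11-fold, adjusted p = 0.00194). OTOL1, an otoconial protein, was at 2.89, 0.269 and 1.97 FPKM in the base and at 24.6, 6.85 and 6.97 FPKM in the apex, high in apex replicate 1, and its call was lost without base replicate 2 (log2 fold change 1.78). Of 5 tested otoconial genes 1 was higher and 1, SPARC, was lower (40% called, beside 11.9% of all genes tested). The call of SPARC was lost without base replicate 1 or 2 (log2 fold changes -0.82 and -0.90) or apex replicate 2 or 3 (-0.76 and -0.88). Of the 5, 4 had a positive log2 fold change and 1 a negative one, with a median of 0.38. The summed FPKM of the list ran from 11010.5 to 12325.6 in the base and from 5377.1 to 7380.2 in the apex. That sum includes SPARC, among the 5 most abundant genes called lower, so it does not give the direction of most members. The otoconial gene OC90 was not among the genes tested. Otoconia belong to the lagena, the vestibular organ that adjoins the apical end of the cochlear duct in birds, and the part of lagena tissue in the apical values was not tested.

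FGF signalling genes were called in both directions, with ligands and feedback targets among those higher in the apex and 3 receptors higher in the base. Of 28 tested members 11 were higher and 3 lower in the apex (50% called, beside 11.9% of all genes tested), with a median log2 fold change of 0.51. FGF10, a ligand of the developing ear, was at 6.54, 8.39 and 15.8 FPKM in the base and at 61.4, 50.0 and 76.0 FPKM in the apex (6.10-fold, adjusted p = 0.00173, chromosome Z from 13974782 to 14032655). ETV4, an ETS factor induced by FGF signalling, was at 3.57, 4.29 and 10.4 FPKM in the base and at 37.6, 30.0 and 47.0 FPKM in the apex (6.28-fold, adjusted p = 0.00165). The related ETV5 was 2.11-fold higher, and the feedback inhibitors DUSP6, SPRY2 and SPRY4 were 1.76-fold, 1.61-fold and 1.61-fold higher. The regions did not overlap for any of these. FGFRL1, a receptor without a kinase domain, was 5.53-fold higher, though it shares its locus entry with another gene. Of the 4 receptors with a kinase, FGFR1 was at 293, 268 and 246 FPKM in the base and at 174, 127 and 148 FPKM in the apex (1.80-fold higher in the base, adjusted p = 0.00487). FGFR2 was 1.73-fold and FGFR4 1.91-fold higher in the base. FGFR3, a marker of supporting cells, was at 43.5, 35.2 and 44.5 FPKM in the base and at 63.6, 51.7 and 70.0 FPKM in the apex (1.503-fold higher in the apex, adjusted p = 0.0514), and the block called it (adjusted p = 0.000612). Without replicate 1 of every region 6 members were higher and 3 lower.

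Wnt signalling split as well. Of 58 members of the Wnt and planar cell polarity list 8 were higher and 10 lower (31% called, beside 11.9% of all genes tested). The lower genes held all 4 R-spondins, secreted proteins that enhance Wnt signalling through LGR receptors. RSPO3 was at 35.6, 37.9 and 29.2 FPKM in the base and at 14.3, 11.5 and 9.80 FPKM in the apex (2.88-fold higher in the base, adjusted p = 0.00413). RSPO2 was at 15.01, 22.7 and 20.6 FPKM in the base and at 5.20, 9.28 and 6.21 FPKM in the apex (2.82-fold, adjusted p = 0.00275), and RSPO1 and RSPO4 were 2.29-fold and 2.01-fold higher in the base. No apex library reached a base library in any R-spondin, and RSPO4 lost its call without base replicate 1 (log2 fold change -0.73). FAT4 and PRICKLE2, of planar polarity, were 2.31-fold and 1.74-fold higher in the base, while CELSR1, a polarity cadherin, was 2.11-fold higher in the apex. KREMEN1, a receptor of the Wnt inhibitors of the DKK family, was at 9.71, 8.56 and 15.3 FPKM in the base and at 35.4, 23.6 and 35.6 FPKM in the apex (2.81-fold, adjusted p = 0.00668). LGR6, an R-spondin receptor, was 6.21-fold higher in the apex from a low level (0.144 to 0.41 FPKM in the base). WNT7A was 2.57-fold higher, and its call was lost without any base or apex library or middle replicate 3, with log2 fold changes between 0.98 and 1.40, and with quantile normalization (1.12), no filter on low values or no intensity trend (1.21 in both). Without replicate 1 of every region 1 member was higher and 9 lower.

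BMP signalling held ligands and antagonists on both sides, with 7 higher and 10 lower of 40 members (42.5% called, beside 11.9% of all genes tested). BMP7 was 3.31-fold higher in the apex, and ID4, an inhibitor of bHLH factors induced by BMP signals, was at 61.4, 62.1 and 74.3 FPKM in the base and at 198, 145 and 189 FPKM in the apex (2.69-fold, adjusted p = 0.00203). BMP3, a ligand that opposes other BMPs in bone, was at 21.9, 24.2 and 20.5 FPKM in the base and at 7.88, 10.1 and 8.64 FPKM in the apex (2.51-fold higher in the base, adjusted p = 0.00118). The regions did not overlap for ID4 or BMP3. CHRD, or chordin, and CHRDL1, antagonists that bind BMPs, were 2.18-fold and 1.83-fold higher in the base, and the receptor gene BMPR1B 2.40-fold. FST, or follistatin, an antagonist of activins, was higher in the apex (2.97, 3.89 and 4.34 FPKM against 8.24, 9.31 and 7.09 FPKM, log2 fold change 0.96 ± 0.17 (SE), adjusted p = 0.00483). The higher count was 4 without base replicate 1 or base replicate 2, and the lower count 6 without base replicate 1.

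Of 25 Notch members 7 were higher and 0 lower (28% called, beside 11.9% of all genes tested). At an unadjusted p under 0.05 these counts were 7 and 6. The 7 called were HES5, HEY2, HEY1, HEYL, DNER, JAG2 and LFNG. The receptors were not among them. The call of HEY1 was lost without base replicate 1 or 2 (log2 fold changes 0.95 and 0.88) or apex replicate 1 or 3 (0.93 and 0.94), and that of HEYL, which shares its locus entry, without base replicate 1 or 2 (0.53 and 0.54) or apex replicate 1 (0.43). HES5, a target repressor, was at 1.10, 0.985 and 1.41 FPKM in the base and at 8.17, 5.51 and 5.52 FPKM in the apex (5.48-fold, adjusted p = 0.0012). HEY2, another target, was at 8.70, 8.95 and 13.1 FPKM in the base and at 30.5, 27.1 and 37.3 FPKM in the apex (3.08-fold, adjusted p = 0.00193). DNER, a transmembrane protein that can bind Notch, was 3.46-fold higher, the ligand JAG2 1.84-fold and the glycosyltransferase LFNG 1.66-fold. The receptor NOTCH1 was at 40.1, 34.0 and 36.2 FPKM in the base and at 34.5, 28.3 and 33.2 FPKM in the apex and was not called (adjusted p = 0.149), nor was the ligand DLL1 (adjusted p = 0.0829). Without replicate 1 of every region 3 members were higher.

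**Figure D3:**
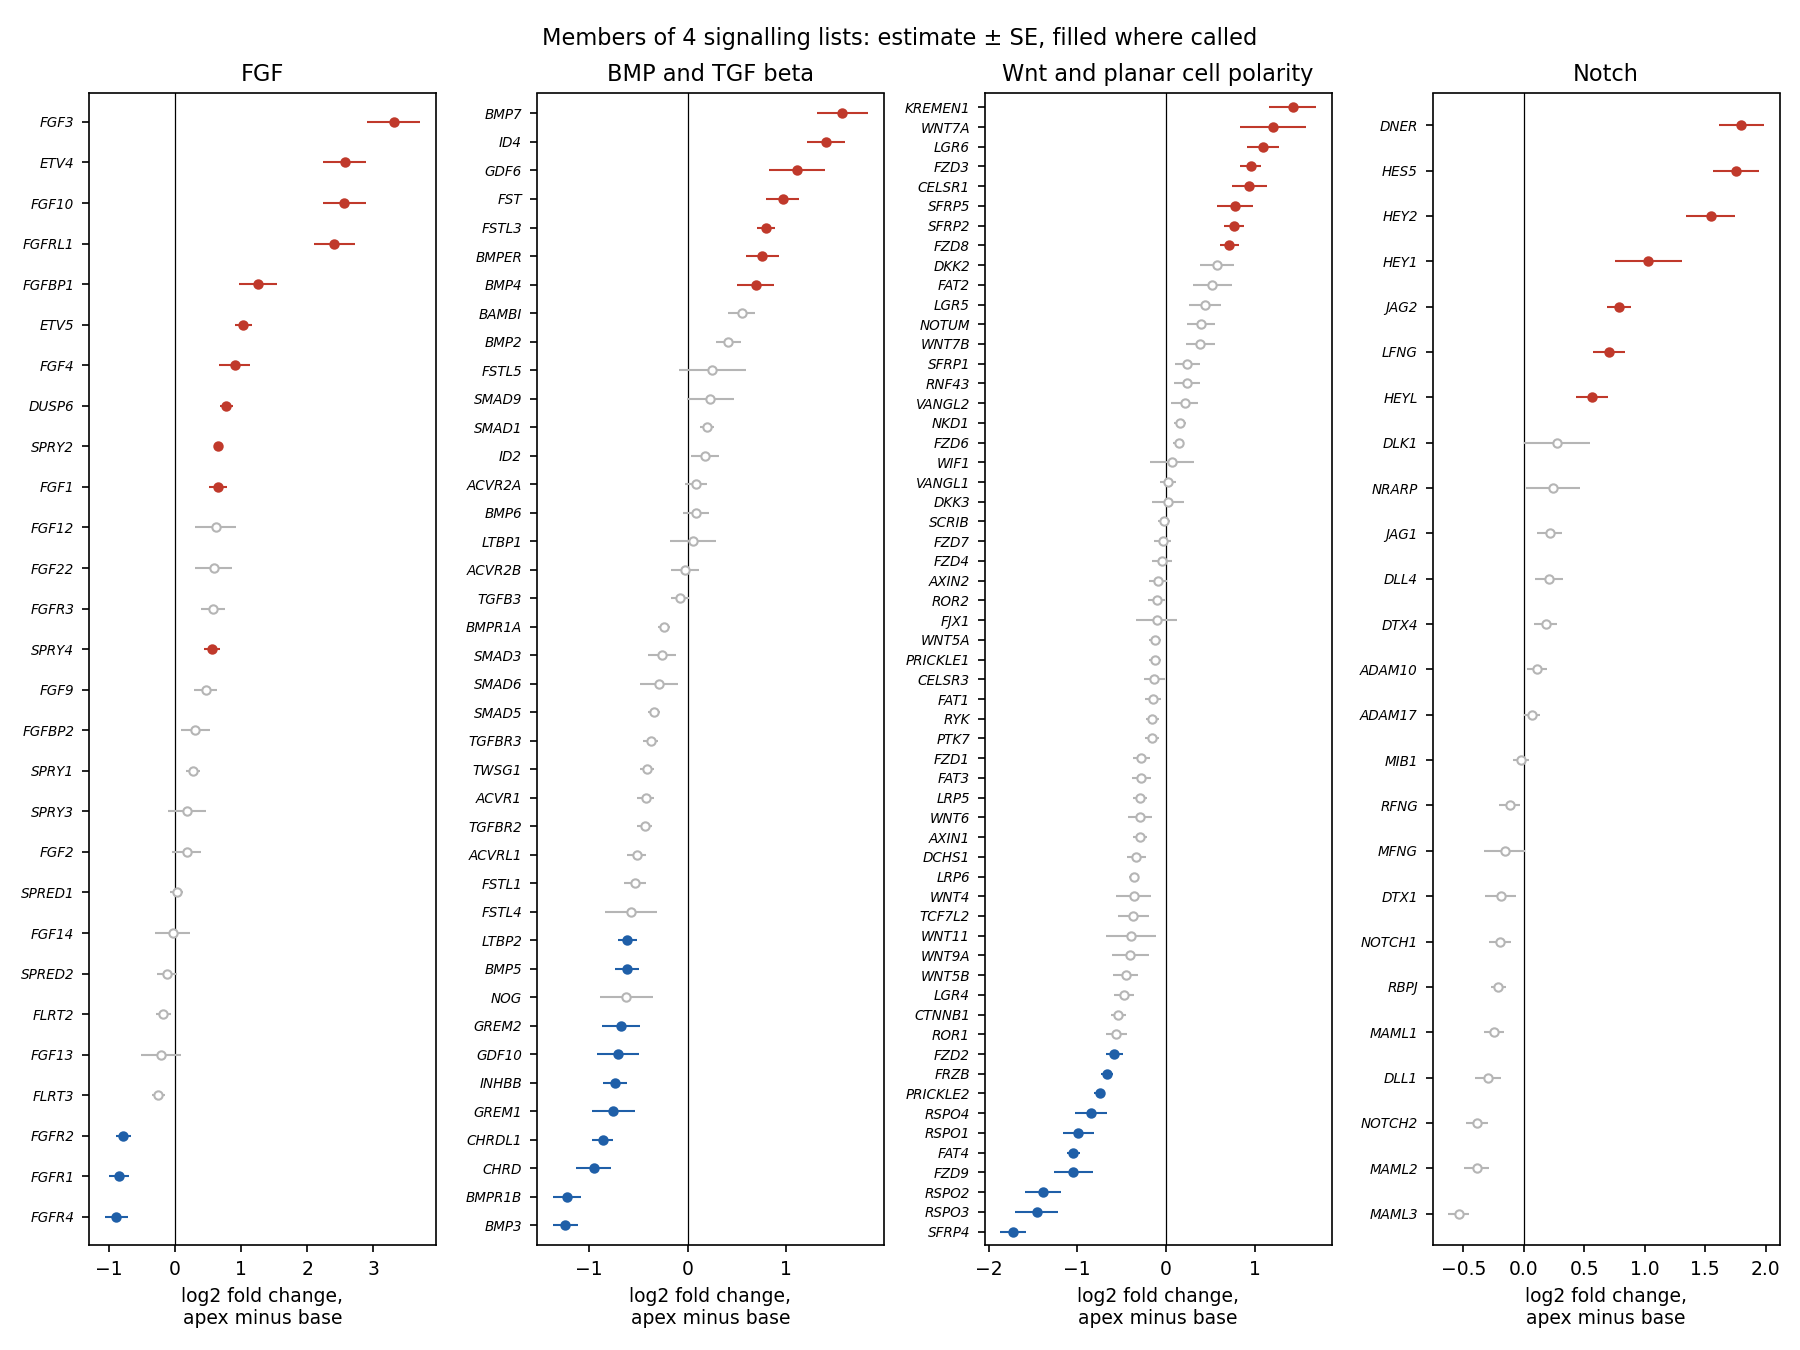
Log2 fold change (apex minus base, x axis) with its SE for the tested members of the FGF (28), BMP and TGF beta (40), Wnt and planar cell polarity (58) and Notch (25) lists, filled where called higher (red) or lower (blue). FGF3, FGF10 and ETV4 lay to the right with FGFR1, FGFR2 and FGFR4 to the left, and the 4 R-spondins lay to the left.

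Other pathways were called in both directions as well. Of 16 retinoic acid genes 2 were higher and 2 lower (25% called), and of 13 Hedgehog genes 2 and 3 (38.5%). Of 23 neurotrophic genes 3 were higher and 3 lower (26.1%), beside 11.9% of all genes tested. Leaving out 1 library took the higher count of the retinoic acid and Hedgehog lists to as low as 0, and the lower Hedgehog count to 1. In retinoic acid handling, DHRS3, which reduces retinal to retinol, was at 168, 160 and 127 FPKM in the base and at 93.8, 79.0 and 76.6 FPKM in the apex (1.82-fold higher in the base, adjusted p = 0.00376), and RARB, a retinoic acid receptor and target that shares its locus entry, was 1.57-fold higher in the base. ALDH1A2, the main enzyme of synthesis, had a ratio of 1.46 toward the apex, under that needed for a call (adjusted p = 0.00603). In Hedgehog signalling, GLI2, a transcriptional effector, was at 21.7, 18.8 and 19.8 FPKM in the base and at 11.9, 9.12 and 10.04 FPKM in the apex (1.94-fold higher in the base, adjusted p = 0.00183). Among neurotrophic genes, BDNF was at 1.35, 1.22 and 5.05 FPKM in the base and at 25.3, 21.8 and 34.4 FPKM in the apex (adjusted p = 0.0017). Its receptor gene NTRK2 had a ratio of 1.24 toward the base and was not called. CNTFR, the receptor of ciliary neurotrophic factor, was at 25.4, 23.1 and 22.2 FPKM in the base and at 10.4, 9.34 and 7.97 FPKM in the apex (2.55-fold higher in the base, adjusted p = 0.000529). The ligand gene CNTF was 1.84-fold higher in the apex, but it shares its locus entry. Of 57 axon guidance genes 7 were lower and 3 higher. That is 17.5% called, beside 11.9% of all genes tested (7.23% higher and 4.7% lower). SEMA3A and SEMA3D, secreted repellents of axons, were 2.30-fold and 2.19-fold higher in the base, and ROBO1, a receptor of SLIT cues, was 2.23-fold higher in the apex. The count of 3 higher guidance genes became 5 without base replicate 3, without apex replicate 2 and with the block.

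Transcription factors of the homeobox, SOX, forkhead, T-box, GATA and bHLH families were called in both directions. Of 60 homeobox genes 12 were higher and 10 lower in the apex, of 38 SOX, forkhead, T-box and GATA genes 9 and 7, and of 37 bHLH genes 8 and 5. The shares called were 36.7%, 42.1% and 35.1%, beside 11.9% of all genes tested. On the basal side were patterning genes of the hindbrain and of mesenchyme. HOXA2, which patterns the hindbrain and the neural crest of the second arch, was at 69.7, 51.4 and 57.6 FPKM in the base and at 23.1, 21.7 and 23.2 FPKM in the apex (2.63-fold higher in the base, adjusted p = 0.000632). IRX2, an Iroquois factor, was at 35.6, 38.4 and 31.2 FPKM in the base and at 3.46, 5.88 and 5.93 FPKM in the apex (6.89-fold, adjusted p = 0.000359), while IRX1, on the same chromosome, was at 230, 202 and 194 FPKM in the base and at 146, 101 and 110 FPKM in the apex (1.75-fold, adjusted p = 0.00667). These factors did not overlap between regions. The mesenchymal factors TBX18 and TWIST1 were 1.70-fold and 1.94-fold higher in the base. FOXP2, a forkhead factor, was 2.22-fold higher in the base.

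On the apical side, EMX2, which sets bundle orientation in mice and shares its locus entry, was at 2.69, 4.01 and 8.53 FPKM in the base and at 28.7, 19.2 and 29.8 FPKM in the apex (5.10-fold, adjusted p = 0.00348). ISL1, a LIM homeobox factor, was 4.86-fold higher. TBX1, needed for growth of the otic epithelium, was at 14.02, 15.2 and 21.9 FPKM in the base and at 83.5, 52.2 and 61.5 FPKM in the apex (3.853-fold, adjusted p = 0.00103). MSX1 was at 0.29, 0.359 and 0.096 FPKM in the base and at 2.38, 1.73 and 2.10 FPKM in the apex (8.34-fold, adjusted p = 0.00135), and PROX1, a factor of supporting cells, was 3.28-fold higher. All apex libraries lay above the base libraries in these genes. SOX21 was 3.23-fold higher, and its call was lost without base replicate 1 or 2 (log2 fold changes 1.46 and 1.42) or apex replicate 1 or 3 (1.47 and 1.56). Single libraries moved 2 of these counts. The higher count of the SOX, forkhead, T-box and GATA genes was 5 without base replicate 2, apex replicate 1 or apex replicate 3, and that of the bHLH genes 5 without base replicate 1, base replicate 2 or apex replicate 1, with a lower bHLH count of 3 without base replicate 1.

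Genes of motile cilia were higher in the apex while those that build cilia in general were not. Of 63 tested genes of the motile axoneme 31 were higher and 0 lower (median log2 fold change 0.62), and of 65 genes of intraflagellar transport, the BBSome and the transition zone 1, DCDC2, was higher and 0 lower (median 0.02), with 9 higher and 11 lower at an unadjusted p under 0.05. The call of DCDC2 was lost without base replicate 1 or 2 (log2 fold changes 0.90 and 0.87) or apex replicate 1 or 3 (0.78 and 0.90). Of the axoneme genes 43 were higher and 1 lower at that unadjusted level, which 4631 of the 12976 genes tested reached in either direction. Hair cells bear a single kinocilium with an axoneme during development. CFAP52, an axonemal protein, was at 0.702, 0.656 and 1.19 FPKM in the base and at 5.94, 4.03 and 6.65 FPKM in the apex (6.51-fold, adjusted p = 0.0012). RSPH1, of the radial spokes, was at 0.129, 0.0576 and 0.271 FPKM in the base and at 2.04, 1.26 and 2.49 FPKM in the apex (12.7-fold, adjusted p = 0.00945). DNAI2, an intermediate chain of outer dynein arms, was 3.47-fold higher, and DNAH9, a heavy chain, 4.79-fold. The base levels of these genes were low and the regions did not overlap. IFT20, a particle subunit of intraflagellar transport, was at 71.8, 70.3 and 66.5 FPKM in the base and at 73.1, 71.5 and 63.4 FPKM in the apex, with overlapping groups (ratio 0.997, adjusted p = 0.979), and the sign of its log2 fold change of -0.01 turned with quantile normalization (0.06) and median-ratio scaling (0.01). RFX3, a transcription factor of ciliary genes, had a ratio of 0.843 and was not called (adjusted p = 0.21). Without replicate 1 of every region 3 motile cilium genes were higher, without replicate 3 of every region 14, and with any one library left out between 21 and 33. Among 37 tubulins and their modifiers 5 were higher (13.5%, beside 7.23% of all genes tested), and the block raised this to 9. TTLL10, a tubulin glycylase, was at 1.11, 0.785 and 1.87 FPKM in the base and at 7.54, 5.32 and 6.93 FPKM in the apex (5.26-fold, adjusted p = 0.00149).

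Genes of the extracellular matrix were called in both directions, and the more abundant ones lay on the basal side. Of 32 collagens 4 were higher and 8 lower in the apex (37.5% called, beside 11.9% of all genes tested). COL11A1 was at 5159, 4205 and 3923 FPKM in the base and at 2500, 1862 and 1948 FPKM in the apex (adjusted p = 0.00424), and it shares its locus entry, as does COL9A3 (1.88-fold higher in the base). COL20A1 was 2.22-fold higher in the base. COL22A1, a collagen of tissue junctions, was at 2.67, 1.94 and 3.28 FPKM in the base and at 10.2, 10.2 and 12.2 FPKM in the apex (4.14-fold, adjusted p = 0.000551). COL14A1, a fibril-associated collagen that shares its locus entry, was 3.24-fold higher in the apex, and COL17A1, the hemidesmosome collagen, 5.004-fold from a base level of 0.18 to 0.399 FPKM. The regions of these collagens did not overlap.

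Of 41 metalloproteinases and their inhibitors 8 were lower in the apex and 1 higher (22% called, beside 11.9% of all genes tested). TIMP2, an inhibitor, was at 2193, 1996 and 2082 FPKM in the base and at 1191, 957 and 1072 FPKM in the apex (1.95-fold higher in the base, adjusted p = 0.00347). TIMP4 was 2.504-fold higher in the base, in a locus entry shared with another gene. MMP2, a gelatinase, lay on the same side as these inhibitors, 1.54-fold higher in the base. Its call was lost without base replicate 1 (log2 fold change -0.55) or apex replicate 3 (-0.58). The 1 member called higher was ADAMTSL5. Of all 41, 15 had a positive log2 fold change and 26 a negative one. The count of 8 was 5 without base replicate 1 or apex replicate 3. Integrins of the epithelial hemidesmosome were on the apical side. ITGB4 was at 8.004, 7.55 and 9.99 FPKM in the base and at 15.7, 17.8 and 16.5 FPKM in the apex (1.96-fold, adjusted p = 0.00154), its partner ITGA6 was 1.71-fold higher, and ITGB6, an epithelial integrin, 3.45-fold. ITGA11, a collagen receptor of mesenchymal cells, was 1.79-fold higher in the base, FREM1 2.11-fold. In the small proteoglycan list, EPYC, or epiphycan, of cartilage, was at 4822, 4537 and 3362 FPKM in the base and at 2555, 2128 and 1754 FPKM in the apex (1.98-fold higher in the base, adjusted p = 0.0139), a call lost without base replicate 1 or 2 (log2 fold changes -0.88 and -0.92) or apex replicate 3 (-0.85). PTPRZ1, a phosphatase and proteoglycan of glia and epithelium that shares its locus entry, was 3.41-fold higher in the apex. MATN4, a matrilin, was 2.84-fold higher in the apex.

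Claudins, the sealing proteins of tight junctions, were higher in the apex in 6 of the 22 genes of the tight junction list, with 1 lower. That is 31.8% of the list called, beside 11.9% of all genes tested. CLDN8 was at 21.6, 16.9 and 28.4 FPKM in the base and at 59.0, 43.9 and 70.4 FPKM in the apex (2.59-fold, adjusted p = 0.0145). CLDN19 was at 102, 124 and 118 FPKM in the base and at 195, 267 and 181 FPKM in the apex (1.87-fold, adjusted p = 0.00723), and CLDN2, a pore-forming claudin, was 2.48-fold higher. CLDN11, the claudin of myelin and of basal cells of the mammalian stria vascularis, was at 130, 107 and 148 FPKM in the base and at 57.2, 68.1 and 62.3 FPKM in the apex (2.05-fold higher in the base, adjusted p = 0.00462). The regions of these 4 claudins did not overlap. CLDN8 and CLDN17 lost their calls without base replicate 1 (log2 fold changes 1.33 and 1.00), base replicate 2 (1.16 and 0.97) or apex replicate 3 (1.18 and 0.98), and without each of these libraries 2 members were higher. Of 10 connexins and pannexins 1 was higher and 2 were lower (3 lower with the block), and the median log2 fold change was -0.25. The share called was 30%, beside 11.9% of all genes tested. GJB1 was 2.14-fold higher in the apex, and GJA3 and GJA1 were 1.97-fold and 1.52-fold higher in the base. The call of GJA1 was lost without base replicate 3 (log2 fold change -0.49), apex replicate 1 (-0.56) or apex replicate 3 (-0.56), each of which left 1 lower member. Of 52 synaptic adhesion genes 10 were higher and 6 lower (30.8% called, beside 11.9% of all genes tested). KIRREL3 was at 4.60, 3.83 and 7.31 FPKM in the base and at 19.0, 12.6 and 20.6 FPKM in the apex (3.31-fold, adjusted p = 0.00431), and DSCAML1, which shares its locus entry, was 4.42-fold higher.

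**Figure D4:**
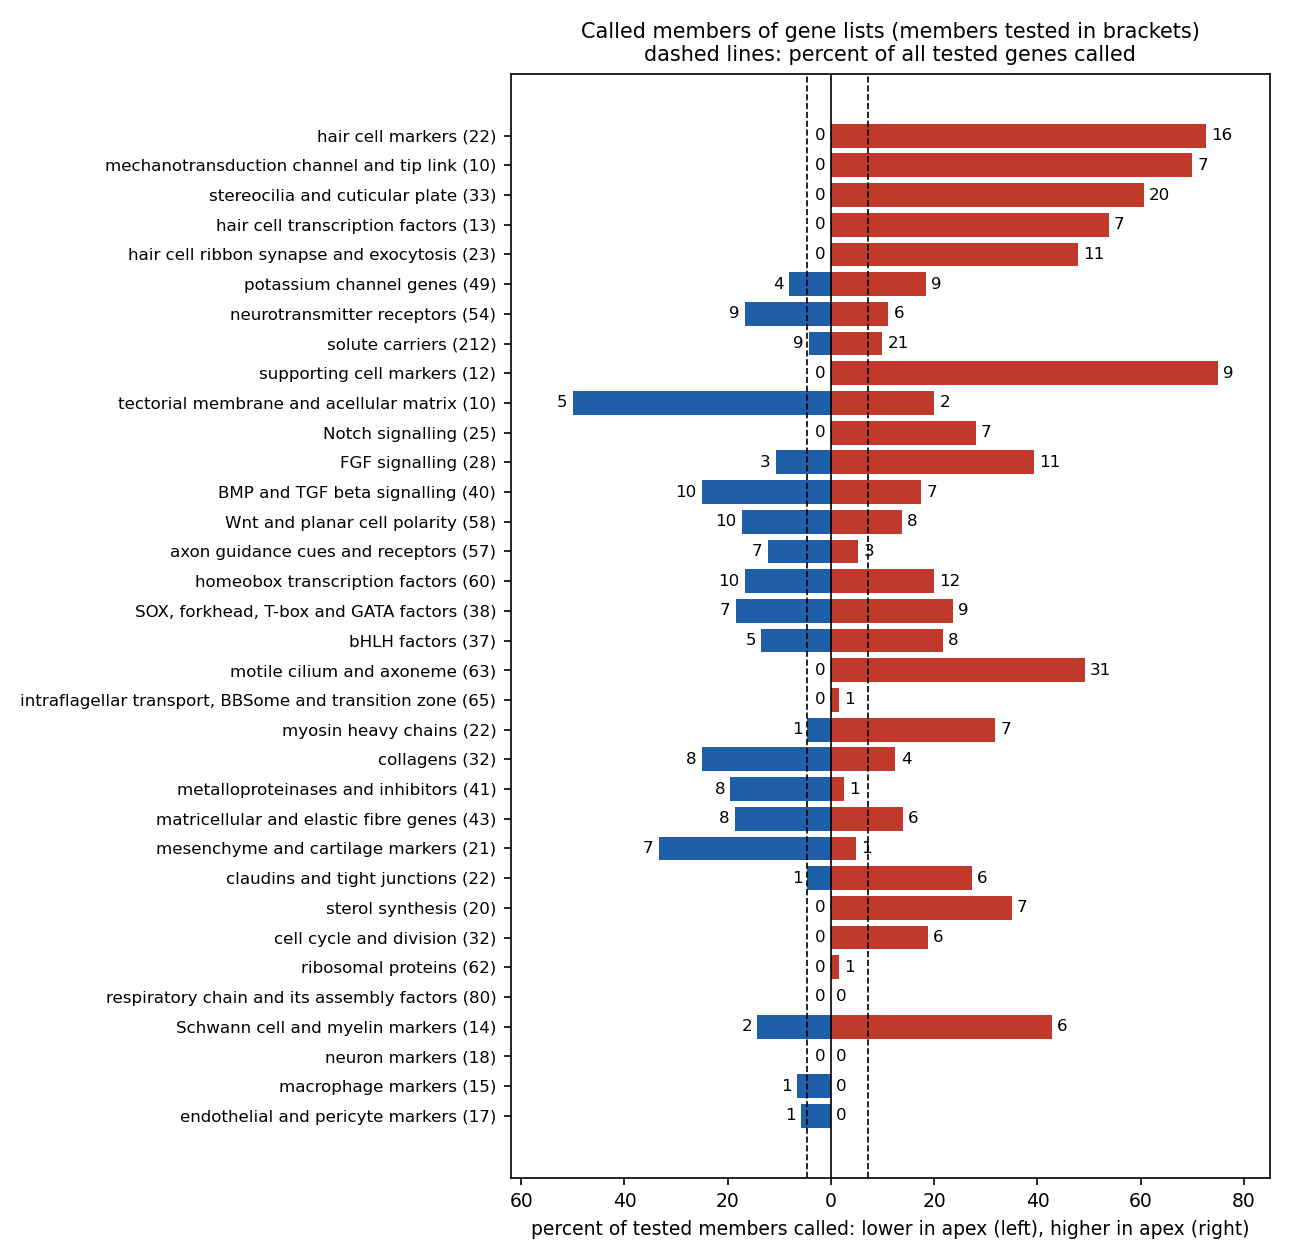
Percent of the tested members of selected gene lists that were called lower (blue, left) or higher (red, right) in the apex, with counts at the bars, members tested in brackets and dashed lines at the 4.7% lower and 7.23% higher of all genes tested. Hair cell, supporting cell and motile cilium lists lay to the right, and the tectorial matrix, mesenchyme and metalloproteinase lists mainly to the left.

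Markers of other cell types were counted over whole lists. Of 21 mesenchyme and cartilage markers 7 were lower and 1 higher in the apex (38.1% called, beside 11.9% of all genes tested). Their summed FPKM ran from 34991 to 45600 in the base and from 20943 to 25308 in the apex. The lower count was 4 without base replicate 1, 3 without base replicate 2 and 4 without apex replicate 3. POU3F4, a factor of otic mesenchyme, was at 481, 503 and 434 FPKM in the base and at 344, 278 and 305 FPKM in the apex (1.53-fold higher in the base, adjusted p = 0.00418), a call lost without base replicate 2 (log2 fold change -0.57) or apex replicate 2 (-0.54). Of 14 Schwann cell and myelin markers 6 were higher and 2 lower (57.1% called, beside 11.9% of all genes tested). Their summed FPKM ran from 2045 to 2339 in the base and from 3092 to 4299 in the apex. PMP2 was at 313, 348 and 278 FPKM in the base and at 725, 909 and 460 FPKM in the apex (2.23-fold, adjusted p = 0.0137). PMP22 was 1.95-fold higher, a call lost without base replicate 1 (log2 fold change 0.85). NGFR, the low-affinity neurotrophin receptor, was at 393, 373 and 347 FPKM in the base and at 220, 184 and 188 FPKM in the apex (1.88-fold higher in the base, adjusted p = 0.00119). SOX10, a factor of Schwann cells that is also expressed in otic epithelium, was at 67.6, 60.9 and 82.9 FPKM in the base and at 152, 138 and 154 FPKM in the apex (2.10-fold, adjusted p = 0.000976). Of 5 muscle markers 3 were higher (60%, beside 7.23% of all genes tested), and TNNC2, a troponin, was 3.93-fold higher in the apex.

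Of 18 neuron markers 0 were called by limma and 2 were called with the block. An unadjusted p under 0.05 was reached by 4 of them, beside 4631 of the 12976 genes tested. The summed FPKM of the list ran from 336 to 986 in the base and from 332 to 1893 in the apex, highest in replicate 2 of either region. Macrophage markers had 1 lower of 15 (6.67%, near the 4.7% of all genes tested), the scavenger receptor gene MARCO (1.70-fold higher in the base). All 15 had a negative log2 fold change, and at an unadjusted p under 0.05 7 were lower and 0 higher. In 8 of the 15 every apex library lay below every base library, beside 22.1% of all genes tested. Their summed FPKM ran from 497 to 571 in the base and from 405 to 419 in the apex. CSF1R, the receptor of macrophage growth factors, was at 48.5, 56.2 and 54.0 FPKM in the base and at 34.9, 34.4 and 37.1 FPKM in the apex (adjusted p = 0.00159), and its ratio of 1.49 toward the base was just under the threshold. Endothelial and pericyte markers had 1 lower of 17 (5.88%, also near the 4.7%), the pericyte receptor gene PDGFRB (1.61-fold higher in the base). By sign, 7 of these 17 were positive and 10 negative, and at an unadjusted p under 0.05 4 were lower and 0 higher. Their summed FPKM ran from 715 to 787 in the base and from 588 to 721 in the apex. Erythrocyte markers had 1 higher of 7, SPTB (14.3%, beside 7.23% of all genes tested), and 4 with the block. Their summed FPKM ran from 856 to 1827 in the base and from 1120 to 9249 in the apex. The call of SPTB, a spectrin, was lost without any base library (log2 fold changes 0.80, 0.77 and 0.93), without middle replicate 3 (0.83) and without apex replicate 3 (0.54). The part of these cell types in the gene groups above was not tested.

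Lists of general cell functions differed in their share of calls, from none in the respiratory chain to 35% in sterol synthesis. The share over all genes tested was 11.9% (7.23% higher and 4.7% lower). Of 62 ribosomal protein genes 1, RPL22L1, was higher (1.85-fold) and 0 were lower. Of 80 genes of the respiratory chain 0 were called in either direction by limma or with the block, and the median log2 fold change was 0.18. An unadjusted p under 0.05 was reached by 28 of them, beside 4631 of the 12976 genes tested, so the number in both directions together was not raised. The direction was uneven, with 27 of the 28 higher and 1 lower. Of all 80, 72 had a positive log2 fold change and 8 a negative one. All apex libraries lay above all base libraries in 29 of the 80 and below them in 2, beside 20.7% and 22.1% of all genes tested. GAPDH, a glycolytic enzyme that shares its locus entry, was at 1801, 1845 and 1613 FPKM in the base and at 2103, 1726 and 1885 FPKM in the apex, with overlapping groups (ratio 1.09, adjusted p = 0.559). Of 32 cell cycle genes 6 were higher and 0 lower (18.8% called, median 0.42), and 11 were higher with the block. CDK1, the kinase of mitotic entry, was at 4.71, 4.997 and 6.10 FPKM in the base and at 10.4, 9.77 and 19.7 FPKM in the apex (2.52-fold, adjusted p = 0.0145). It was highest in apex replicate 3, the library with the highest globin values, and its call was lost without base replicate 1 (log2 fold change 1.06). The cell cycle count was 2 without base replicate 1, 3 without base replicate 2 and 3 without apex replicate 3. Of 20 sterol synthesis genes 7 were higher and 0 lower (median 0.52). FDFT1, or squalene synthase, was at 21.5, 24.0 and 29.7 FPKM in the base and at 38.6, 47.0 and 43.4 FPKM in the apex (1.71-fold, adjusted p = 0.0102), in a shared locus entry. The sterol count was 2 without base replicate 1, 4 without base replicate 2 and 3 without apex replicate 2 or 3.

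**Figure D5:**
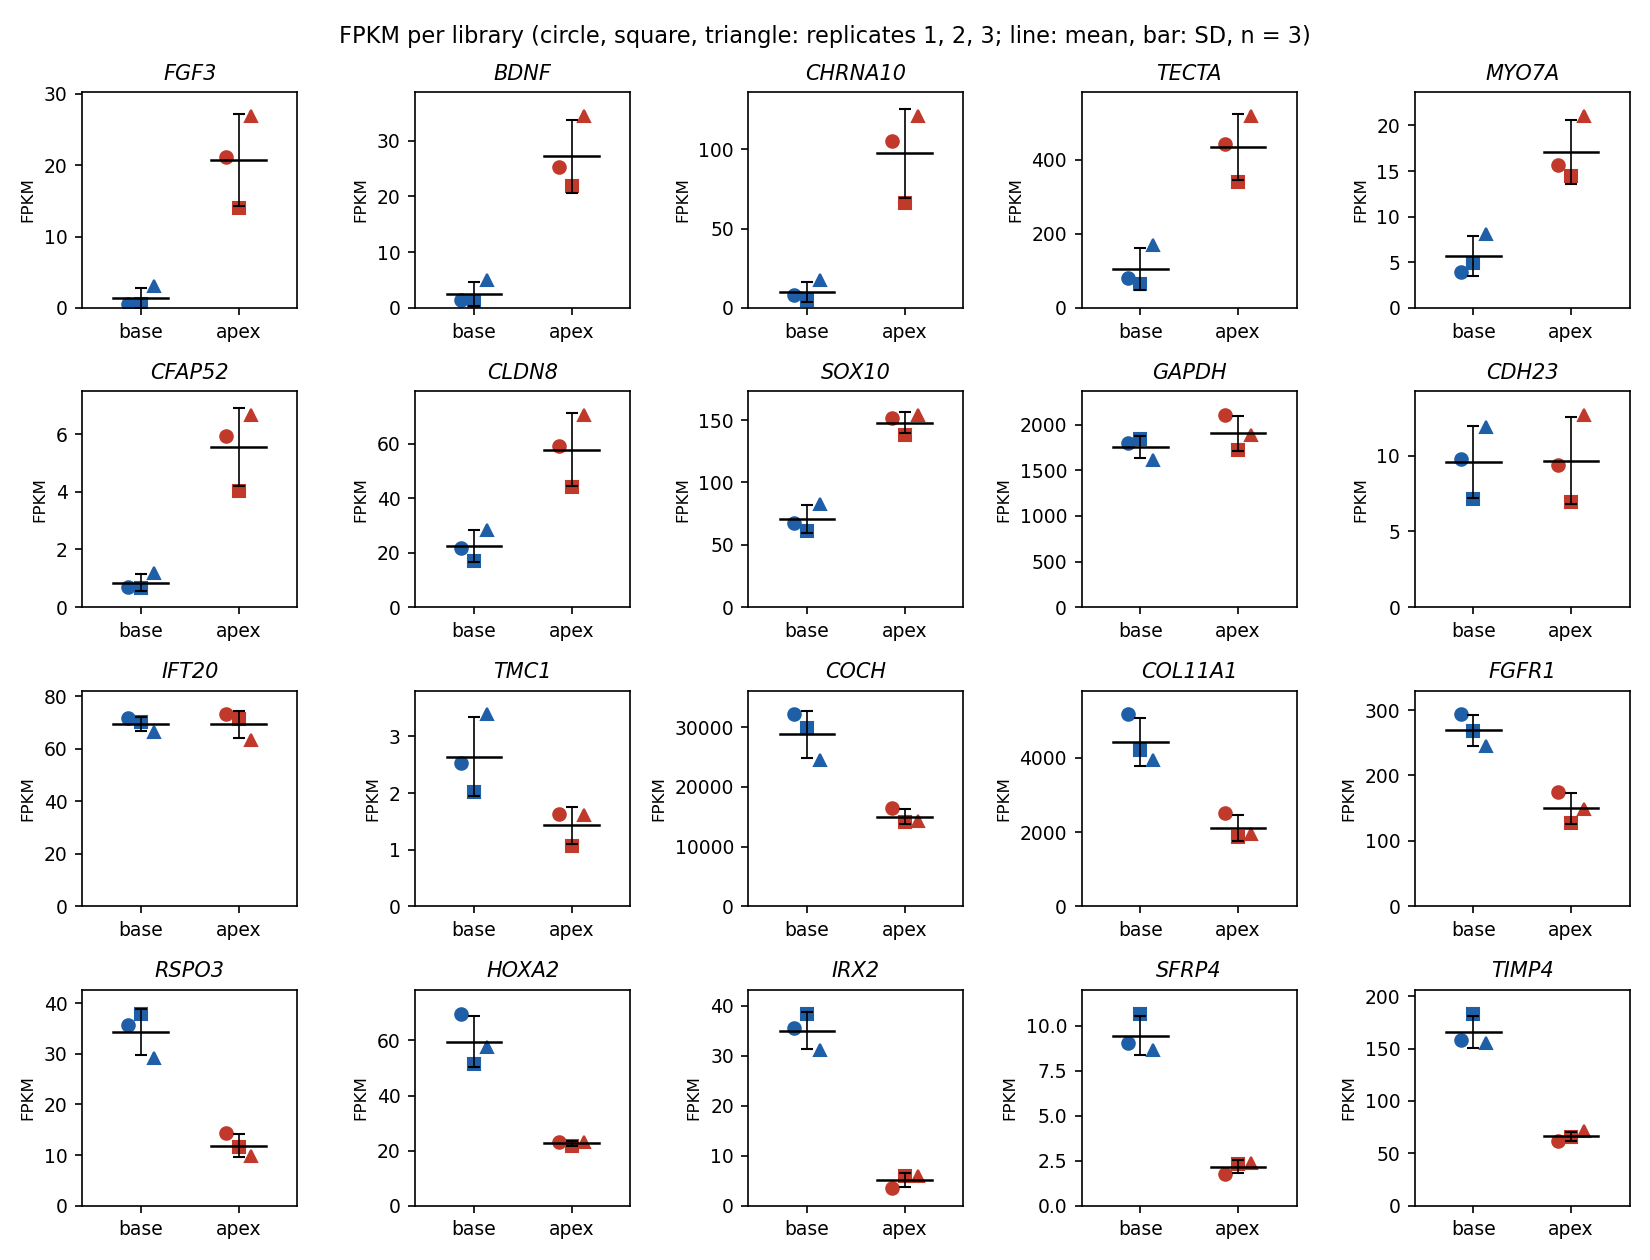
FPKM of 20 genes in each of the 3 base and 3 apex libraries (circle, square and triangle for replicates 1, 2 and 3), with the mean as a line and the SD (n = 3) as a bar. From FGF3 to SOX10 every apex library lay above the base libraries, GAPDH, CDH23 and IFT20 overlapped, and from COCH to TIMP4 every apex library lay below.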

How the data were processed

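RNA-seq was done on pooled pieces of chick basilar papilla, with 3 replicates each of base, middle and apex (9 libraries). The authors deposited 1 table of FPKM values per gene and library, made from alignments to the galGal5 genome. Per the labels and the submitters' processing notes, STAR 2.5.4b and Cuffdiff 2.2.1 were used, and how Cuffdiff scaled the libraries against each other is not given in the sources used here. Read counts were not used, so no count model was fitted and the depth was only estimated, from steps in the low values, as 1 to 1.45 times that of base replicate 1 in the 6 libraries compared.

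Values were taken as log2(FPKM + 1), a scale that understates changes of genes with low values. limma 3.58.1 in R 4.3.3 was fitted with an intensity trend and region as the factor over all 9 libraries, for the 12976 genes whose FPKM averaged 1 or more in apex or base. Tests were two-sided, with Benjamini-Hochberg adjustment over all 12976 genes, and a call needed both an adjusted p under 0.05 and region means that differed 1.5-fold or more. Folds in the text are ratios of mean FPKM. Tables and figures were made with Python 3.11.15, pandas 2.3.3, numpy 2.4.6 and matplotlib 3.10.9, and the fit was tested on simulated data. Since libraries are pools, p-values measure only the spread between these pools.

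The titles number the replicates 1 to 3 in each region. The deviations from the region means correlated in all 9 pairs of libraries with the same number (0.368 to 0.682, median 0.489), against -0.542 to 0.153 in the 18 other pairs, so the numbers pair the libraries, and a second model added that number as a factor (the block). Calls, p-values and counts come from the model without this factor unless the block is named, so they leave the pairing out. Shared birds are implied by the study's methods but not stated.

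The members and the 66 gene lists were chosen with earlier results of these data known, and the lists were described by counts with no test. Some list patterns were corrected after genes caught in error were seen. Named were the called, non-overlapping genes with a symbol that had the 15 largest rises and falls, leaving out genes the paper names for their expression, the 5 most abundant called genes in each direction, the 2 leading called members of each list in each direction or, failing those, its most abundant member, and defining members. Other named genes were chosen after their values were seen. Alternatives covered the pseudocount, low-value filters, quantile and median-ratio scaling, the libraries in the fit, the block, the intensity trend, the fold criterion and leaving out libraries. A planned search of promoters for motifs was not run, since no promoter sequences were used here. Results for some genes are not reported here.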

Additional observations from a re-analysis of the deposited data

How the results depend on the processing

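Against the 938 genes higher and 610 lower in the apex, the counts under the other settings stayed within 1.5 times, except as follows. An adjusted p alone, with no ratio required, gave 1404 higher and 1485 lower, and a ratio of at least 2 gave 558 and 183. Leaving out 1 library gave between 586 and 1060 higher and between 424 and 636 lower, and leaving out 1 replicate number in all regions gave between 246 and 802 higher and between 354 and 450 lower. The replicate block gave 1255 and 719, kept all 1548 calls and, beyond the additions given with the results, changed no other call of a gene named in the text. Quantile normalization gave 800 higher and 691 lower, or 53.7% higher against 60.6%, and moved the median log2 fold change of all genes from -0.007 to -0.034. The causes were not tested.

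Of 6575 values for 286 named genes over 23 alternatives, 5930 kept direction and side of the threshold, 582 lost the call, 50 gained it and 13 turned sign. Calls were lost most often without replicate 1 of every region (136 genes), at a ratio of at least 2 (86) and without replicate 3 of every region (76). The sign of the log2 fold change of IFT20 turned with quantile normalization (0.058) and median-ratio scaling (0.0074), and it ran from -0.044 without apex replicate 1 to 0.057 without apex replicate 3. CDH23 turned with quantile normalization (-0.052) and ran from -0.195 without apex replicate 3 to 0.195 without apex replicate 2. RPLP1, a ribosomal protein gene, ran from -0.237 without apex replicate 1 to 0.034 without apex replicate 2, and NEFM from -0.355 without apex replicate 2 to 1.53 without base replicate 2. None of these 4 genes was called. Of 3036 counts for lists under alternatives, 524 moved by more than 1.5 times. Depth limits genes near 1 FPKM, for which no counting interval could be had.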

Other observations

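Gene families were also counted by the letters at the start of their symbols, which groups unrelated genes where those letters coincide. Of 113 such groups with at least 10 tested members, 33 held no called gene and 6 had at least 40% of members called, beside 11.9% of all genes tested. The claudins (CLDN) led with 6 higher and 1 lower in the apex of 10, or 70%. The cilia and flagella associated proteins (CFAP) had 5 higher and 0 lower of 10, the SOX factors 4 higher and 2 lower of 12, the FGF ligands 4 higher and 0 lower of 10, the myosins (MYO) 7 higher and 1 lower of 20, and the septins (SEPT) 2 higher and 2 lower of 10.

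By chromosome, over those with at least 100 genes tested, the share of called genes was 21% on chromosome 24, with 26 higher and 9 lower in the apex of 167, and 6.12% on chromosome 19, with 8 higher and 10 lower of 294.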
